A study of Mus musculus with 4 samples.

Results

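The miR-183, miR-96 and miR-182 cluster was followed in exosomes released by 3T3-L1 cells during adipocyte differentiation. Its 3 members, mmu-miR-183-5p, mmu-miR-96-5p and mmu-miR-182-5p, were found by name among the 1881 mouse miRNAs of the array. 3T3-L1 is an established mouse line of fibroblast-like preadipocytes. Cells at day 0 (D0) had been kept in growth medium. Later samples followed a switch to differentiation medium with insulin, dexamethasone and 1-methyl-3-isobutylxanthine, and then to medium with insulin. All media contained exosome-depleted fetal bovine serum per the labels. Exosome fractions were pelleted by ultracentrifugation from medium at D0, D4, D12 and D16, and their RNA was labelled with Cy3. Each day had 1 array, hybridised with a pool of 2 independent experiments by the methods and of 3 by the labels. There was therefore no replicate check and no p-value for any difference between days. More of a miRNA in each vesicle and another mix of vesicles cannot be told apart in such a fraction.

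The 3 hairpins are known to be cut from 1 primary transcript. The cluster is known for its high expression in sensory organs, including hair cells of the inner ear and photoreceptors, and mutations in the seed of miR-96 cause progressive hearing loss in humans and mice. A miRNA finds its target mRNAs mainly through its seed, so members with different seeds can act on different mRNAs. In most hairpins 1 arm is kept as the mature miRNA and the other is largely degraded.

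The mature sequences show how far the members resemble each other. All 3 matched the RefSeq table by name (build GRCm38.p6), and the capitals mark the seed, bases 2 to 8 from the 5′ end. The first line holds the seed of miR-183-5p, and the next lines hold those of miR-96-5p and miR-182-5p, which share bases 2 to 7.
mmu-miR-183-5p: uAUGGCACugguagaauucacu
mmu-miR-96-5p: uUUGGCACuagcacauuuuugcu
mmu-miR-182-5p: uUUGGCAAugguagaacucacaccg
No member shared all bases of its seed with another member or with any other of the 1608 array miRNAs that had a RefSeq sequence. In the whole table of 1679 mature names, mmu-miR-1271-5p had the same seed as miR-96-5p, and it was not among the array miRNAs matched. Aligned from the 5′ end without gaps, miR-183-5p and miR-182-5p were identical at 18 of 22 positions, including 12 of the 14 after the seed. The pair miR-183-5p and miR-96-5p was identical at 13 of 22 positions, and miR-96-5p and miR-182-5p at 12 of 23. Probe sequences were not used here, so hybridisation of 1 member to the probes of another was not tested.

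All 3 mature miRNAs lie on the minus strand of chromosome 6 in GRCm38.p6. In the order of transcription these are miR-183-5p at chr6:30169711-30169732, miR-96-5p at chr6:30169506-30169528 and miR-182-5p at chr6:30165962-30165986. The hairpins of Mir183 and Mir96 are separated by 116 bases, and those of Mir96 and Mir182 by 3453 bases. The whole cluster spans 3820 bases inside the long noncoding RNA gene Mirc35hg.

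miR-96-5p was detected on all 4 days. Its total gene signal, a background-subtracted intensity in arbitrary units, was 2.88 ± 0.871 at D0, against 18.5 ± 2.15 on D4, 23.5 ± 2.32 on D12 and 18.95 ± 1.86 on D16. The error is the one given by the scanner software and covers variation within 1 array. Unscaled, D0 lay far below the later days, and D4 and D16 did not differ beyond their errors. With all probes summed and the 75th percentile scaling, D4 was at 0.924 of D0. D12 was the highest unscaled value, but it exceeded D4 by 0.34 on the log2 scale with a technical error of 0.22. The software multiplies every probe total by an effective spot size for the array. It was 0.6 at D0 and D16, 0.780 at D4 and 0.760 at D12. Without it, D16 of miR-96-5p was at 1.02 of D12, so D12 was not the highest.

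miR-182-5p was also detected on all days, with 3.15 ± 0.885 at D0 and then 12.1 ± 1.92, 11.7 ± 1.79 and 10.4 ± 1.48 on the 3 later days in turn. It was low at D0, and the 3 later values lay within 1 error of each other. miR-183-5p was not detected at D0 and reached 8.25 ± 1.45 on D4, 17.7 ± 2.08 on D12 and 13.5 ± 1.64 on D16. Its D0 level was bounded at 5.03, which is 3 times the summed error of its probes. Unscaled, its order was D12, D16, D4 and D0, and D16 against D12 was -0.39 in log2 with a technical error of 0.24. Without the effective spot size, D16 of miR-183-5p was at 0.964 of D12.

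**Figure D1:**
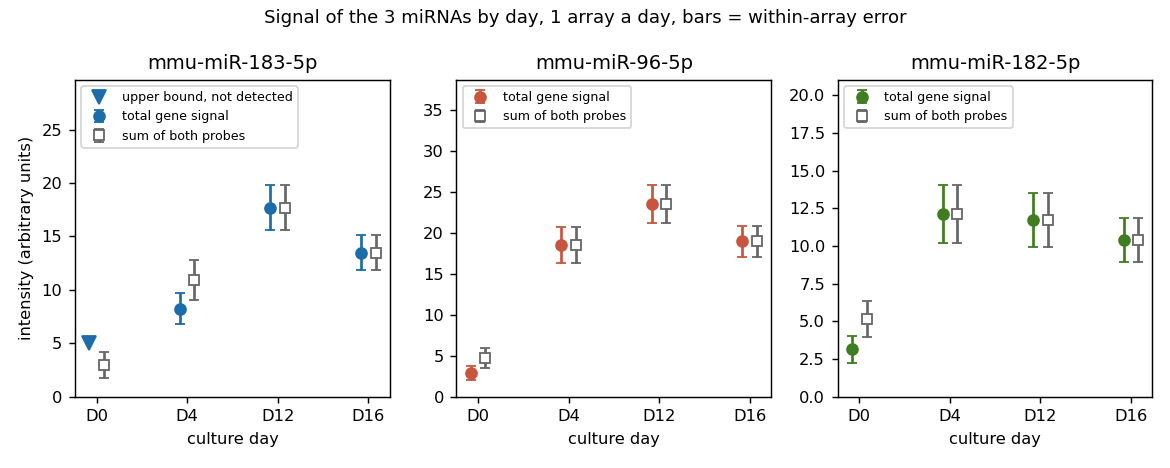
Total gene signal of each member (filled circles, intensity in arbitrary units) on the 4 culture days, with 1 array per day and bars for the within-array error, and the sum of both probes whether detected or not (open squares). Each panel has its own axis. In these unscaled signals D0 was lowest for every member. Under the 75th percentile scaling miR-182-5p was lower at D4 (0.902 of D0), and with all probes summed miR-96-5p was too (0.924). The bound of miR-183-5p, shown at D0 at 5.03, left no direction at D4 under any of the 5 scalings of the deposited signals. With both probes summed and spike-in scaling, miR-183-5p was at least 1.19-fold at D4. The sum of both probes at D0 was 4.70 for miR-96-5p, 5.16 for miR-182-5p and 2.96 for miR-183-5p. Neither probe of miR-183-5p passed 3 times its error at D0.

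The D0 values rested on few probes. Each member had 2 probes of 15 spots each, and the total gene signal adds only probes above 3 times their error. For miR-96-5p at D0, A_54_P1332 passed with 2.88 against a threshold of 2.61, and A_54_P1331 did not with 1.83 against 2.53. For miR-182-5p, A_54_P2348 passed with 3.15 against 2.66, and A_54_P2347 missed with 2.01 against 2.54. Both probes of miR-183-5p missed at D0, A_54_P2351 with 2.06 against 2.55 and A_54_P2350 with 0.898 against 2.48. A D0 signal from 1 probe was thus set against later signals from 2 probes. The same held at D4 for miR-183-5p, where A_54_P2350 missed with 2.66 against 3.66. From D12 on, both probes of every member were counted.

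Single spots showed the same contrast. Among the 30 spots of miR-96-5p, 2 were well above background at D0, 28 at D4 and all 30 at D12 and D16. For miR-183-5p the numbers were 1, 14, 19 and 18 in order of day, and for miR-182-5p 3, 16, 16 and 15. The spots of A_54_P1332, the probe of miR-96-5p counted at D0, ranged from 9.06 to 21.2 with a median of 12.2 at D0. At D12 they ranged from 51.2 to 74.2 with a median of 55.1, so the unscaled days did not overlap. The spots of A_54_P2351 for miR-183-5p ranged from 0.841 to 19.8 with a median of 9.50 at D0, and from 38.6 to 57.0 with a median of 46.7 at D12. For A_54_P2348 of miR-182-5p the D0 spots reached 25.9 with a median of 14.9, and the D12 spots began at 22.1 with a median of 29.8, so these days overlapped. All these spot signals are unscaled. Divided by the 75th percentile factor of D12, 3.29, the D12 spots of A_54_P1332 and A_54_P2351 would overlap those of D0. That factor comes from total gene signals, which carry the effective spot size, 0.760 at D12 and 0.6 at D0. Spot signals do not carry it, so this division overstates the overlap. Spots of 1 array share its RNA and are not replicates of a day. At D0 the median spot signal was 6.42 on the left side of the array and 12.3 on the right for A_54_P2347. It was 12.5 and 20.4 for A_54_P2348, 6.51 and 11.8 for A_54_P1331, and 8.12 and 13.8 for A_54_P2351. For A_54_P1332 it was 11.9 and 13.7, while A_54_P2350 went the other way with 4.54 and 4.04. On each later day the direction differed between probes. The effect of the side on detection at D0 was not tested.

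**Figure D2:**
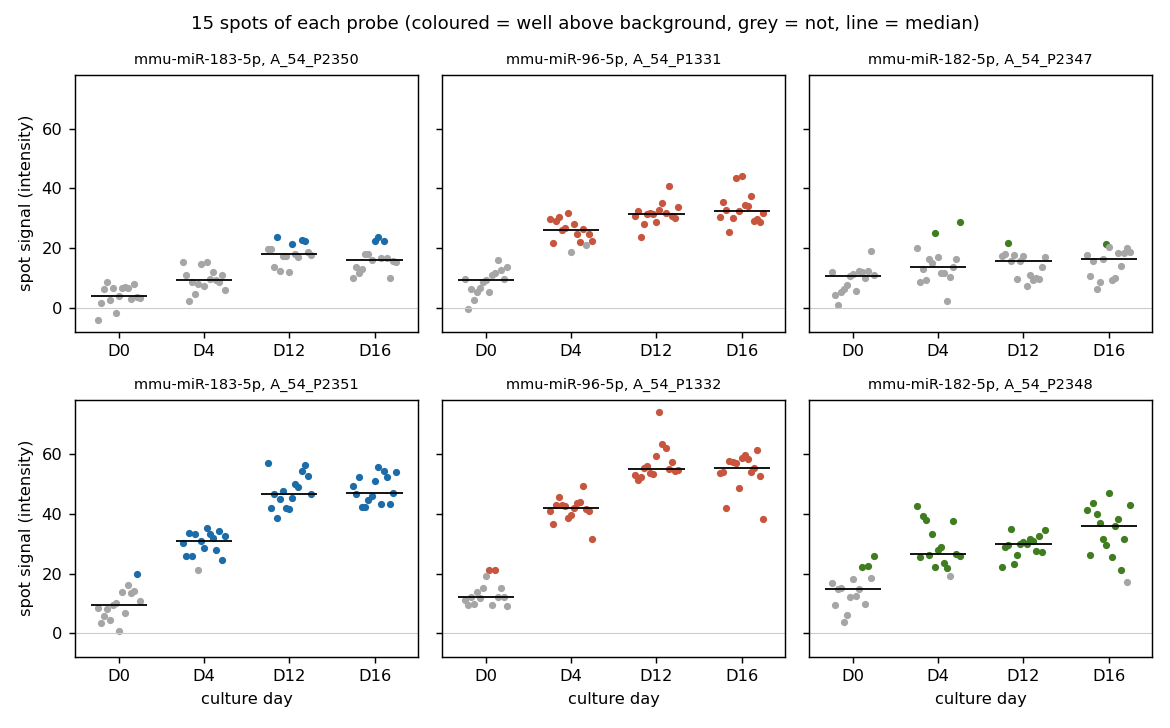
Background-subtracted signal (intensity) of the 15 spots of each of the 6 member probes on the 4 culture days, with 1 array per day, spots well above background in colour, the others in grey, and the median as a line. In these unscaled signals the D0 spots of A_54_P1332 and A_54_P2351 lie below all D12 spots of the same probe. Their medians are 12.2 and 9.50 against 55.1 and 46.7, whereas D0 and D12 overlap for A_54_P2348. Divided by the 75th percentile factor of D12, 3.29, the D12 spots of A_54_P1332 and A_54_P2351 would overlap those of D0 as well. That factor also holds the effective spot size, which spot signals do not carry, so the division overstates the overlap.

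To ask how the members changed with differentiation, each later day was set against D0. Signals were left unscaled here, and the scaling between arrays behind the study's own division by D0 is not given in the sources used here. At D4, 2 of 3 members were past 2-fold up, where 54.3% of the 438 miRNAs detected on at least 1 of both days were. At D12 all 3 were past it, against 41.6% of 438 miRNAs, and at D16 all 3, against 27.9% of 420. Over the miRNAs detected on both arrays the median ratio was 2.47 on D4, 1.91 on D12 and 1.32 on D16, which is 1.30, 0.94 and 0.40 in log2. The same medians were 0.579, 0.581 and 0.582 after scaling to the 75th percentile. The 4 spike-in RNAs, added to each sample in labelling and hybridisation, were themselves brighter than at D0 by mean factors of 1.83, 1.73 and 1.28. At D4 the unscaled split was 54.3% up and 0.228% down, and the 75th percentile turned it into 4.79% up and 31.1% down. At D12 it went from 41.6% up and 2.74% down to 8.68% up and 30.1% down, and at D16 from 27.9% up and 6.67% down to 10.2% up and 30.7% down. Whether miRNAs in general rose or fell thus depended on the scaling. The members' counts at D4, D12 and D16 therefore say little about the members, and their ratios are given relative to these medians.

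miR-96-5p stood at 6.43-fold of D0 on D4, 8.16-fold on D12 and 6.59-fold on D16. These were 1.38, 2.09 and 2.32 above the median of all miRNAs in log2, with technical errors of 0.47, 0.46 and 0.46. At D12 it ranked 23rd from the top of 297 miRNAs, a place that a common factor between arrays cannot move. The ratios of miR-182-5p were 3.84, 3.72 and 3.30, which is 0.64, 0.96 and 1.33 above the median with errors of 0.47, 0.46 and 0.45. It ranked 65th of 297 at D12. miR-183-5p was at least 1.64-fold, 3.52-fold and 2.68-fold higher than at D0 on the 3 later days in turn.

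**Figure D3:**
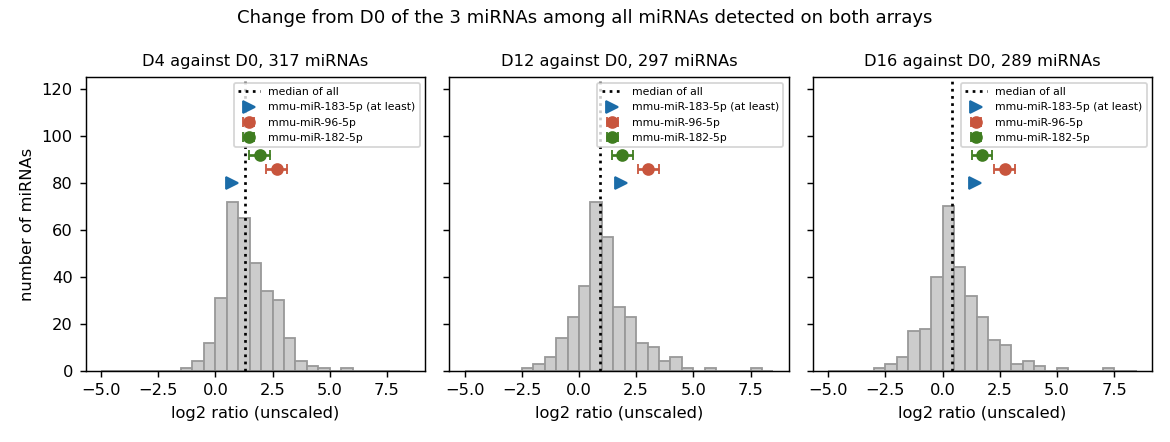
Distribution of log2 ratios to D0 (unscaled, grey bars, number of miRNAs) over the miRNAs detected on both arrays, with the median as a dotted line, and the members above the bars at an arbitrary height, with their technical error or, for miR-183-5p, as a lower bound. At D12 the median lies at 0.94, miR-182-5p at 1.90 and miR-96-5p at 3.03, and under the 75th percentile scaling miR-182-5p was below 1-fold at D4 (0.902), as was the bound of miR-183-5p (0.385).

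The number of probes counted bore on these ratios. Among the 297 miRNAs, 53 had fewer probes counted at D0 than at D12, and their median ratio was 4.37, or 2.68 when all their probes were summed. The 231 with equal numbers had a median of 1.81. With all probes summed for each miRNA detected on an array, a choice made after the values were seen, miR-96-5p was at 4.99-fold at D12, with a range of 2.87 to 8.66 over 2 technical errors. By the same sum miR-182-5p was at 2.27-fold, with a range of 1.29 to 3.99. miR-183-5p kept its bound of at least 3.52-fold, since neither of its probes passed 3 times its error at D0. All 3 were past 2-fold, as were 39% of all miRNAs. Among the 297 miRNAs with such a ratio, 88.6% lay below miR-96-5p and 68.0% below miR-182-5p. Relative to the median, miR-182-5p was 0.30 higher in log2 with an error of 0.41, so its change could not be told from that of the median miRNA. miR-96-5p was 1.44 above it, with an error of 0.40. At D4 the direction of miR-182-5p relative to the median turned, to 0.03 below it with an error of 0.41 and with 47.6% of 317 miRNAs below, while miR-96-5p was 0.72 above with an error of 0.41. At D16 miR-182-5p was 0.65 and miR-96-5p 1.65 above, both with an error of 0.40.

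Scaling between arrays lowered every ratio to D0. At D12, the ratio of miR-96-5p ran from 2.48 with the 75th percentile to 4.72 with the 4 spike-in RNAs over 5 scalings, and it was past 2-fold in all of them. miR-182-5p ran from 1.13 to 2.15 and was past 2-fold in 1 of the 5, with the spike-in RNAs. The bound of miR-183-5p ran from 1.07 to 2.04. With spike-in scaling, all 3 members were past 2-fold at D12, against 20.5% of all miRNAs. After quantile normalization over all miRNAs, 1 of 3 was, miR-96-5p at 2.93, against 11.6%, and with the 75th percentile again miR-96-5p alone, against 8.68%. At D4 the direction was less settled, since miR-182-5p ran from 0.902 to 2.10 over the 5 scalings and the bound of miR-183-5p from 0.385 to 0.898. A lower bound under 1 gives no direction, so the rise of miR-183-5p at D4 was lost under all 5 scalings of the deposited signals. The deposited D4 signal lacks 1 probe. With both probes summed the D4 bound was 2.17 unscaled and 1.19 with spike-in scaling, which keep the direction. With quantile normalization it was 0.909, which gives none. At D16 miR-96-5p ran from 2.91 to 5.16 and miR-182-5p from 1.46 to 2.59. Summing all probes and scaling by the 75th percentile left miR-96-5p at 1.52 and miR-182-5p at 0.690 at D12, and no member past 2-fold. At D4 miR-96-5p was then at 0.924 and miR-182-5p at 0.550, and the bound of 0.510 for miR-183-5p left no direction. At D16, in the same setting, miR-96-5p was at 1.78 and miR-183-5p at 1.19 or more, while miR-182-5p turned to 0.890.

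**Figure D4:**
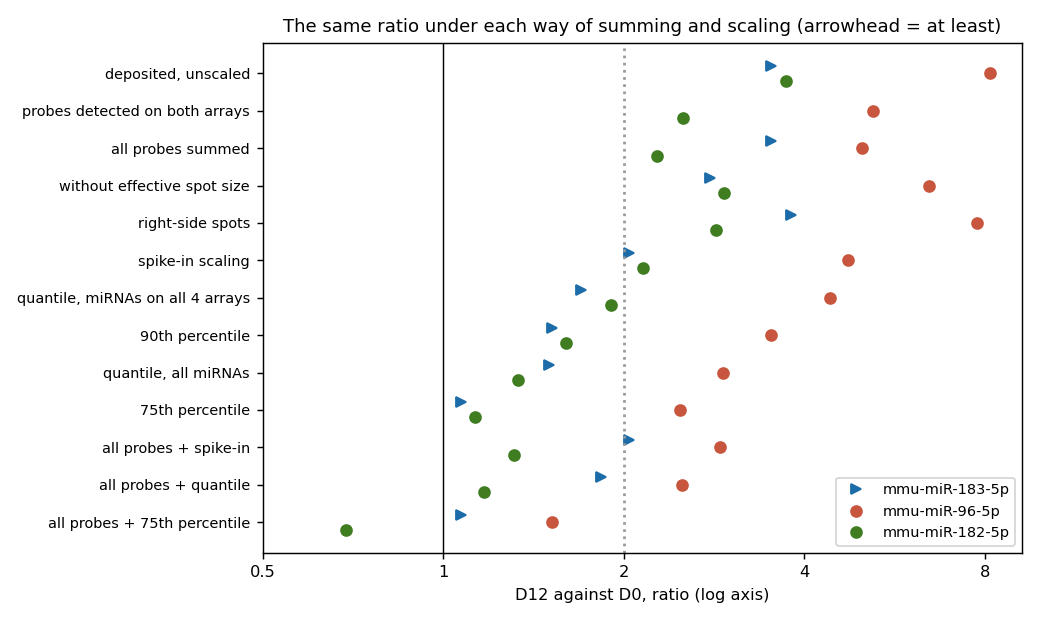
Ratio of D12 to D0 (log axis) of each member under each way of summing probes and scaling arrays, with arrowheads for lower bounds, a solid line at 1 and a dotted line at 2. miR-96-5p stays above 1 in every setting shown, from 1.52 to 8.16, and miR-182-5p falls to 0.690 with all probes and the 75th percentile scaling.

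The next comparison asked whether the members went on changing after D4. From D4 to D12, 1 of 3 members passed 2-fold, against 18.6% of 458 miRNAs in either direction. This was miR-183-5p at 2.15-fold, with a range of 1.41 to 3.27 over 2 technical errors, and it ranked 16th of 374 miRNAs detected on both arrays. The D4 signal held 1 of its probes and the D12 signal both. For A_54_P2351 alone, the probe detected on both arrays, the ratio was 1.55, and with both probes summed it was 1.62, so the call was lost. Scaling raised the ratio instead, to between 2.27 and 3.43 over the 5 scalings with the deposited signals. With both probes summed it was past 2-fold with the 75th percentile (2.10) and with quantile normalization (2.01), and not with the spike-in RNAs (1.72). Unscaled, 93.6% of 374 miRNAs lay below it with both probes summed, and it was 0.90 above their median in log2 with an error of 0.30. miR-96-5p was at 1.27-fold and miR-182-5p at 0.968-fold, where the median miRNA was at 0.865-fold, and under the 5 scalings miR-96-5p ran from 1.34 to 1.65 and miR-182-5p from 1.02 to 1.29. Over all miRNAs the split went from 4.15% up and 14.4% down to 7.64% up and 7.86% down with the 75th percentile.

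From D12 to D16, 0 of 3 members passed 2-fold in either direction, against 6.99% of 415 miRNAs. The ratios were 0.762 for miR-183-5p, 0.808 for miR-96-5p and 0.888 for miR-182-5p. The median ratio of 371 miRNAs was 0.703, so all 3 were slightly above the median of the array. Under each of the 5 scalings the 3 ratios were above 1, between 1.03 and 1.29, and the 75th percentile moved the split over all miRNAs from 0.241% up and 6.75% down to 1.20% up and 0.723% down. Relative to the median the members differed from it by 0.11, 0.20 and 0.34 in log2, with errors of 0.24, 0.20 and 0.30.

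The members were then compared with each other through their changes, since signals of different probes cannot be set against each other. From D0 to D12, with all probes summed, the log2 change of miR-96-5p exceeded that of miR-182-5p by 1.14 with a technical error of 0.57, and with the deposited signals by 1.13 with an error of 0.65. With all probes summed the same difference was 0.75 with an error of 0.58 at D4 and 1.00 with an error of 0.56 at D16, so it stayed within 2 errors on each day. miR-183-5p, with only a bound at D0, was not compared over these days. From D4 to D12 the deposited signals put miR-183-5p 1.15 above miR-182-5p in log2 with an error of 0.44, and summing both probes reduced this to 0.75 with the same error. For miR-183-5p above miR-96-5p it went from 0.76 with an error of 0.38 to 0.36 with an error of 0.37. None of these differences has a replicate check.

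Likeness of patterns over the days was measured as the root mean square difference of log2 signals after each miRNA's own mean was subtracted, so that a factor common to an array cancels. It was taken over the days on which all the members compared were detected. Over D4, D12 and D16, with the deposited signals, miR-96-5p and miR-182-5p differed by 0.16, as the 25th nearest of 349 to miR-182-5p and the 34th nearest to miR-96-5p. miR-183-5p and miR-96-5p differed by 0.34, as the 154th nearest to miR-96-5p and the 32nd nearest to miR-183-5p. The pair miR-183-5p and miR-182-5p differed by 0.50, as the 272nd nearest to miR-182-5p and the 63rd nearest to miR-183-5p. The D4 signal of miR-183-5p lacked 1 probe, and with all probes summed these differences were 0.16, 0.15 and 0.31 in the same order of pairs. By that sum miR-183-5p was the 35th nearest to miR-96-5p in place of the 154th and the 246th nearest to miR-182-5p. Seen from miR-183-5p, miR-96-5p was the 25th and miR-182-5p the 61st, while miR-182-5p was the 39th nearest to miR-96-5p and miR-96-5p the 34th nearest to miR-182-5p. Over all 4 days the pair miR-96-5p and miR-182-5p differed by 0.44 in either sum. Among 282 miRNAs, miR-96-5p was then the 95th nearest to miR-182-5p and miR-182-5p the 35th nearest to miR-96-5p, or the 165th and the 47th with all probes summed.

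Among deposited signals, the 5 miRNAs most like miR-96-5p over 4 arrays were miR-19b-3p, miR-125b-5p, miR-20a-5p, let-7f-5p and miR-130a-3p, at 0.083 to 0.15 in log2 among 282 miRNAs. miR-19b-3p, the nearest, had signals of 5.88, 39.2, 48.8 and 34.7 from D0 to D16. The nearest to miR-182-5p were miR-6924-3p, miR-7668-5p, miR-7042-5p, miR-6960-3p and miR-7031-3p, at 0.16 to 0.19. For miR-183-5p over its 3 days of detection they were miR-19a-3p, miR-100-5p, miR-652-3p, miR-667-3p and miR-15a-5p, at 0.078 to 0.10 among 349. miR-19a-3p was itself not detected at D0 and had signals of 5.98, 14.6 and 10.5 at D4, D12 and D16. These distances were smaller than the technical error of the members' own log2 ratios, so the order among them was not resolved. After quantile normalization, 3 of the 5 for miR-96-5p and 2 of the 5 for each other member were named again. With all probes summed 2 of the 5 were for miR-96-5p, 1 for miR-183-5p and 0 for miR-182-5p.

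In the order of D12 to D0 ratios, let-7f-5p at 8.53, miR-30d-5p at 8.50 and miR-19b-3p at 8.31 lay just above miR-96-5p. Just below it were let-7d-5p at 7.90, miR-5624-5p at 7.74 and miR-669b-3p at 7.18. Around miR-182-5p were miR-7069-3p, miR-7681-5p and miR-6924-3p, from 3.81 down to 3.75, and miR-23a-3p, miR-7042-5p and miR-467a-3p, from 3.69 to 3.67. Each of these neighbours was within 1 combined technical error of its member.

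The other arms of the hairpins, miR-183-3p, miR-96-3p and miR-182-3p, were not detected on any array. None of their 30 spots each was well above background on any day, and their bounds at D12 were 6.58, 6.59 and 6.59. Only the 5p arm of each hairpin was therefore detected.

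Markers of tissues known for the cluster were looked up on the same arrays. Over all 1881 miRNAs, 17.5%, 22.6%, 21.6% and 20.2% were detected in order of day. Of 7 epithelial miRNAs, including miR-200c-3p, miR-141-3p and miR-205-5p, 0 were detected on any day, so their summed signal was 0 on all 4 arrays. Of 6 sensory and neural miRNAs, 1, 2, 2 and 1 were detected in order of day, with summed signals of 1.89, 22.8, 18.5 and 1.95. miR-211-5p had signals of 1.89, 14.2, 11.1 and 1.95, and miR-204-5p was the other one detected at D4 and D12. The defining neural miRNAs miR-124-3p and miR-9-5p were not detected on any day, nor were miR-7a-5p and miR-128-3p.

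Markers of the cultured cells came next. Of 8 fibroblast and preadipocyte miRNAs, 5 were detected at D0 and 7 on each later day. miR-21a-5p had signals of 140.3, 797, 346 and 268 in order of day, and miR-199a-3p of 62.8, 581, 551 and 356. Their summed signal went from 260 at D0 to 1818, 1244 and 862 on the later days, and miR-145a-5p was not detected. At D12, 6 of the 7 measured were past 2-fold up, against 41.6% of all miRNAs, with miR-199a-3p at 8.78 and miR-22-3p at 6.61, and with the 75th percentile 3 of 7, against 8.68%. Of 7 miRNAs described in adipocyte differentiation, 3, 6, 7 and 7 were detected in order of day, with sums of 10.99, 182, 238 and 178. miR-103-3p had signals of 4.11, 67.8, 72.0 and 54.9 and miR-107-3p of 4.25, 49.4, 58.9 and 45.6, and 5 of 7 were past 2-fold up at D12, against the same 41.6%, among them miR-103-3p at 17.5 and miR-193b-3p at 16.6. With the 75th percentile 4 of 7 were, against 8.68%. miR-143-3p stands in both lists.

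The last 2 lists hold miRNAs known from blood cells and liver. Of 4 erythroid miRNAs on the array, 1, 3, 4 and 3 were detected in order of day, with summed signals of 9.40, 468, 2528 and 1649. miR-451a had signals of 9.40, 443, 2400 and 1559, and was at 5.42-fold from D4 to D12. At D12, 3 of the 4 were past 2-fold up from D0, against 41.6% of all miRNAs, and 2 of 4 with the 75th percentile, against 8.68%. Of 5 liver and leukocyte miRNAs, 0, 1, 4 and 4 were detected, with sums of 0, 16.9, 91.8 and 63.4. These include the leukocyte miRNAs miR-142a-3p, at 7.36 and 5.30 on D12 and D16, and miR-142a-5p, at 8.63 and 6.36, which the list held under older names. miR-223-3p of myeloid cells had signals of 16.9, 69.6 and 47.6 from D4 on, and it was the 1 of the 4 measured that was past 2-fold up at D12, against 41.6% unscaled and 8.68% with the 75th percentile, where it was again 1 of 4. The liver miRNA miR-122-5p was detected at D12 and D16, and miR-150-5p on no day. Unscaled, both lists were highest at D12, as were the adipocyte differentiation list, miR-183-5p and miR-96-5p. Under each of the 5 scalings miR-183-5p and miR-96-5p were at 1.03 to 1.17 of their D12 level at D16. The technical errors of that step were 0.24 and 0.20 in log2. The sums of the lists were not scaled, so they cannot be set beside these scaled ratios. The part of these lists in the members' result was not tested.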

How the data were processed

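The deposited values are intensity readings that Agilent Feature Extraction 11.0.1.1 had corrected for local background, without any step that puts the arrays on 1 scale. The total gene signal was checked to sum the probes above 3 times their error, with 0.1 listed where a miRNA is not detected. This rule gave the software's call for all 1881 miRNAs on each array. At D0 the variation between replicate spots (median 21.1%) was outside the software's range. The effective spot size was a default at D0 and D16 and an estimate at D4 and D12. This size enters every probe total as a factor.

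Ratios were computed with Python 3.11.15, numpy 2.4.6 and pandas 2.3.3, with relative errors added in quadrature. Undetected signals were taken at the highest of 3 times the summed probe error, the summed probe signal and the lowest detected signal of the array. Past 2-fold means a ratio or bound above 2 or below 0.5. Alternatives were scalings, probe sets, spot sets, detection rules, thresholds and normexp background correction with limma 3.58.1 in R 4.3.3, and the sum of all probes of each detected miRNA was added after the values were seen. The miRNAs named are the members, their other arms, marker lists, the 5 nearest patterns and the 3 neighbours on each side in the D12 to D0 order. Members and lists were chosen with earlier results of these data known. The listed miR-142-3p and miR-142-5p were taken as the array's miR-142a-3p and miR-142a-5p, the mature miRNAs of Mir142 in RefSeq, a choice made after the values were seen. The listed miR-486b-5p had no match by name.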

Additional observations from a re-analysis of the deposited data

How the results depend on the processing

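Each count of members is followed by the share of all miRNAs past the threshold in the same setting. At D4 the count of members up from D0 was 2 (54.3%). It became 0 with the 75th percentile (4.79%), quantile normalization over all miRNAs (10%), normexp (2.92%), all probes plus the 75th percentile (2.97%), all probes plus quantile normalization (9.36%) and the filter above the median of detected miRNAs (72.9%). A count of 1 came with the 90th percentile (11.9%), quantile normalization over miRNAs detected on all 4 arrays (12.6%), 50% of spots required well above background (62.1%) and all probes plus spike-in scaling (21.2%). A count of 3 came with the lowest detected signal in place of the bound (68.9%), all probes summed (54.3%) and a threshold of 1.5-fold (71.9%). At D12 it was 3 (41.6%). It became 0 with normexp (2.5%) and all probes plus the 75th percentile (7.76%). A count of 1 came with the 75th percentile (8.68%), the 90th percentile (13%), quantile normalization over all miRNAs (11.6%), quantile normalization over miRNAs detected on all 4 arrays (14.4%) and all probes plus quantile normalization (11.9%). A count of 2 came with 50% of spots required well above background (45.2%), all probes plus spike-in scaling (16.2%), probes detected on both arrays (43.8%), a margin of 2 technical errors (28.3%) and the filter above the median of detected miRNAs (58.9%). At D16 it was 3 (27.9%). It became 0 with normexp (1.65%) and all probes plus the 75th percentile (8.81%). A count of 1 came with the 75th percentile (10.2%), quantile normalization over all miRNAs (12.4%) and all probes plus quantile normalization (12.6%). A count of 2 came with the 90th percentile (13.3%), quantile normalization over miRNAs detected on all 4 arrays (16%), 50% of spots required well above background (29.4%), all probes plus spike-in scaling (16.2%), probes detected on both arrays (25.6%), a margin of 2 technical errors (19.5%) and the filter above the median of detected miRNAs (40.8%). From D4 to D12 the count in either direction was 1 (18.6%). It became 0 with 50% of spots required well above background (19.9%), normexp (0.957%), all probes summed (15.1%), all probes plus spike-in scaling (15.1%), probes detected on both arrays (15%) and a margin of 2 technical errors (9.17%). From D12 to D16 it was 0 (6.99%) and 0 in every alternative run. The offset of 50 in normexp exceeds most median spot signals of the members and draws ratios towards 1 by construction. For the other settings the cause was not tested.

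Ratios to D0 are given in the order D4, D12 and D16. The 75th percentile gave 1.51, 2.48 and 2.91 for miR-96-5p, 0.902, 1.13 and 1.46 for miR-182-5p and bounds of 0.385, 1.07 and 1.19 for miR-183-5p. The 90th percentile gave 2.18, 3.52 and 4.13 for miR-96-5p, 1.30, 1.60 and 2.07 for miR-182-5p and bounds of 0.555, 1.52 and 1.68 for miR-183-5p. Spike-in scaling gave 3.52, 4.72 and 5.16 for miR-96-5p, 2.10, 2.15 and 2.59 for miR-182-5p and bounds of 0.898, 2.04 and 2.10 for miR-183-5p. Quantile normalization over all miRNAs gave 1.83, 2.93 and 3.34 for miR-96-5p, 1.04, 1.33 and 1.70 for miR-182-5p and bounds of 0.438, 1.5005 and 1.60 for miR-183-5p. Quantile normalization over miRNAs detected on all 4 arrays gave 2.67, 4.41 and 4.97 for miR-96-5p, 1.48, 1.90 and 2.35 for miR-182-5p and bounds of 0.531, 1.69 and 1.80 for miR-183-5p. Normexp gave 1.29, 1.42 and 1.41 for miR-96-5p, 1.13, 1.12 and 1.15 for miR-182-5p and 1.21, 1.39 and 1.36 for miR-183-5p. Summing all probes gave 3.93, 4.99 and 4.03 for miR-96-5p, 2.34, 2.27 and 2.01 for miR-182-5p and bounds of 2.17, 3.52 and 2.68 for miR-183-5p. Summing all probes with spike-in scaling gave 2.15, 2.89 and 3.16 for miR-96-5p, 1.28, 1.31 and 1.58 for miR-182-5p and bounds of 1.19, 2.04 and 2.10 for miR-183-5p. Summing all probes with the 75th percentile gave 0.924, 1.52 and 1.78 for miR-96-5p, 0.550, 0.690 and 0.890 for miR-182-5p and bounds of 0.510, 1.07 and 1.19 for miR-183-5p. Summing all probes with quantile normalization gave 1.58, 2.50 and 2.84 for miR-96-5p, 0.970, 1.17 and 1.44 for miR-182-5p and bounds of 0.909, 1.83 and 1.93 for miR-183-5p. Requiring 50% of spots well above background gave bounds of 3.5997, 4.57 and 3.69 for miR-96-5p, bounds of 1.55, 1.52 and 1.38 for miR-182-5p and bounds of 1.64, 2.54 and 2.04 for miR-183-5p. Probes detected on both arrays gave 3.98, 5.21 and 4.13 for miR-96-5p and 2.56, 2.51 and 2.28 for miR-182-5p, and no ratio to D0 for miR-183-5p. Leaving out the effective spot size gave 4.95, 6.45 and 6.59 for miR-96-5p and 2.96, 2.94 and 3.30 for miR-182-5p. The bounds of miR-183-5p were then 1.26, 2.78 and 2.68. Against the lowest detected signal of the D0 array, 1.22, miR-183-5p was at 6.77, 14.5 and 11.1, which are no bounds, since its own summed D0 signal was 2.96. With only the spots on the right side of the arrays miR-96-5p was at 5.72, 7.76 and 5.98. In that setting miR-182-5p was at 2.73, 2.85 and 2.52, and the bounds of miR-183-5p were 1.64, 3.80 and 2.76.

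The ratios between later days are given in the order miR-183-5p, miR-96-5p and miR-182-5p. The 75th percentile gave 2.78, 1.64 and 1.25 from D4 to D12 and 1.11, 1.17 and 1.29 from D12 to D16. The 90th percentile gave 2.74, 1.62 and 1.23 from D4 to D12 and 1.11, 1.17 and 1.29 from D12 to D16. Spike-in scaling gave 2.27, 1.34 and 1.02 from D4 to D12 and 1.03, 1.09 and 1.20 from D12 to D16. Quantile normalization over all miRNAs gave 3.43, 1.60 and 1.28 from D4 to D12 and 1.07, 1.14 and 1.27 from D12 to D16. Quantile normalization over miRNAs detected on all 4 arrays gave 3.19, 1.65 and 1.29 from D4 to D12 and 1.06, 1.13 and 1.24 from D12 to D16. Normexp gave 1.15, 1.11 and 0.995 from D4 to D12 and 0.984, 0.991 and 1.02 from D12 to D16. Summing all probes gave 1.62, 1.27 and 0.968 from D4 to D12 and 0.762, 0.808 and 0.888 from D12 to D16. Summing all probes with spike-in scaling gave 1.72, 1.34 and 1.02 from D4 to D12 and 1.03, 1.09 and 1.20 from D12 to D16. Summing all probes with the 75th percentile gave 2.10, 1.64 and 1.25 from D4 to D12 and 1.11, 1.17 and 1.29 from D12 to D16. Summing all probes with quantile normalization gave 2.01, 1.58 and 1.21 from D4 to D12 and 1.06, 1.14 and 1.23 from D12 to D16. For miR-183-5p from D4 to D12 the ratio was 1.55 with probes detected on both arrays and 1.55 with 50% of spots required well above background. Without the effective spot size the ratios from D12 to D16 were 0.964, 1.02 and 1.12.

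Of the 5 nearest patterns, 3 for miR-96-5p and 2 for each other member were named again after quantile normalization, and 2 for miR-96-5p, 1 for miR-183-5p and 0 for miR-182-5p with all probes summed. Which scaling lies closer to the amounts of RNA was not tested. The D0 signals lay close to background, with an error of 30.3% for miR-96-5p and 28.1% for miR-182-5p.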
